A study of Mus musculus with 30 samples.

Results

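Loss of the type I interferon receptor was examined in mammary glands that carry the Her2/Neu oncogene, by setting the 9 arrays of Her2/Neu+/IFNAR1-/- glands against the 6 arrays of Her2/Neu+ glands, 15 of the 30 arrays in the series. All arrays with those titles were members, and no measured value was used to choose them. Probes measured on 50% or more of each group's arrays were averaged by gene symbol, which gave 11463 genes. Each value is the log2 ratio of gland RNA, labelled with Cy5, to a universal mouse reference RNA, labelled with Cy3, so a difference of 1 between groups is a 2-fold difference. All changes below are Her2/Neu+/IFNAR1-/- minus Her2/Neu+ unless stated otherwise.

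Type I interferons are antiviral cytokines that signal through a receptor made of Ifnar1 and Ifnar2 to the kinases Jak1 and Tyk2. These activate a transcription factor complex that includes Stat2 and Irf9 and binds interferon-stimulated response elements, and so switch on antiviral genes such as Isg15, Rsad2 and the Oas family. Low endogenous interferon keeps a basal level of such genes in many tissues, and Her2/Neu is a receptor tyrosine kinase oncogene that gives rise to mammary tumours in transgenic mice.

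The inguinal gland was taken from 129sv mice aged 19 weeks. Her2/Neu+/IFNAR1-/- mice carried the oncogene and lacked Ifnar1, and Her2/Neu+ mice carried the oncogene with the receptor intact. A further 8 arrays held IFNAR1-/- glands and 7 held WT glands, both without the oncogene, and were used to ask whether receptor loss had another effect there. The promoter that drives Her2/Neu, the part of Ifnar1 that was deleted and the histology of each gland were not given in the labels, and the glands are bulk tissue, so fewer cells of a type and less RNA per cell cannot be told apart. Nothing in the labels says whether samples of a group shared a litter, so the p-values speak only of the spread among these samples.

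The Her2/Neu+/IFNAR1-/- arrays held 17485 to 20430 probe values and the Her2/Neu+ arrays 19306 to 20679. Many values recur exactly on their own array, 5804 to 10385 per Her2/Neu+/IFNAR1-/- array and 2712 to 10044 per Her2/Neu+ array. They are called repeated values here, 75% of them lay within 0.3 of 0, and their origin is not given. Values also stop at 6 in either direction. The fat cell genes Adipoq and Fabp4 stood at this upper limit on all 15 arrays, and the milk protein gene Lalba averaged 6 in Her2/Neu+/IFNAR1-/- and 5.93 ± 0.17 in Her2/Neu+ glands (SD, n = 7 and 6), as in a mammary fat pad with secretory epithelium. A pair of Her2/Neu+ arrays stood apart. Array 114 had a median correlation of 0.43 with the other arrays of these groups and array 119 had 0.57, whereas the other 13 arrays lay between 0.61 and 0.67. Genes that lost their call and list medians that turned sign without these arrays are given with and without them. The labels' block numbers divide the arrays into an apparent set 1, with 4 Her2/Neu+/IFNAR1-/- and 4 Her2/Neu+ arrays, and set 2, with 5 and 2, of which the 2 are 114 and 119. No apparent slide held both genotypes, so slide and genotype cannot be told apart.

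Receptor loss in oncogene-carrying glands went with few changes past the test and with one compact group of genes among them. Of 11463 genes, 9 passed limma's test at a Benjamini-Hochberg adjusted p under 0.05 (0.0785% of genes tested), 8 of them higher (0.0698%) and 1 lower (0.00872%) in Her2/Neu+/IFNAR1-/- glands. The genes that rose were Gm14288, Gm14411, Gm14393, Gm14326 and Gm14391, which neighbour each other on chromosome 2, and Agpat2, Rnase4 and Clec3b. The gene that fell was Glo1. Gm14288 was read by 3 probes, of which 2 passed on their own, and Gm14391 by 2, of which 1 did. Each of the other genes that passed, Glo1 included, was read by 1 probe. At an unadjusted p under 0.05, 1280 genes differed (11.2%), 801 higher (6.99%) and 479 lower (4.18%). Quantile normalization turned this balance, to 504 higher and 693 lower. The change over all genes had a median of 0.11 and was positive in 6770 genes (59.1%), which is the level against which the gene groups below are read. A change of more than 2-fold was positive in 564 genes (4.92%) and negative in 326 (2.84%). For 15 genes (0.131%) the arrays of the 2 genotypes did not overlap, 8 of them higher (0.0698%) and 7 lower (0.0611%).

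**Figure D1:**
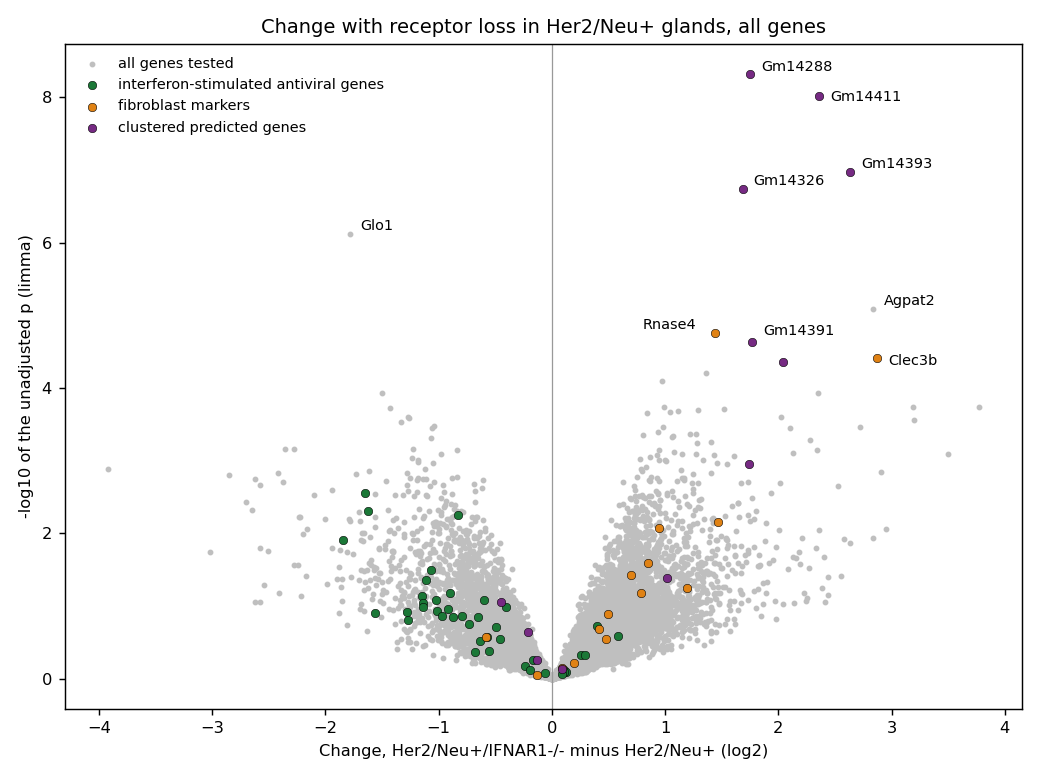
Each point is a gene, with the change on the log2 scale on the x axis and the unadjusted p of limma as −log10 on the y axis. The predicted genes of the chromosome 2 cluster and Glo1 stand at the top, fibroblast markers lie mostly to the right and interferon-stimulated genes mostly to the left.

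The 5 predicted genes on chromosome 2 that rose lie in a stretch of closely similar genes. The promoters of 3 of them in RefSeq (GRCm38.p6, from 250 bases before to 50 after the start) are shown because they make this similarity visible. Gm14411 had no window in the table used, so nothing is said of its promoter. Capitals mark a run of 54 bases that the windows of Gm14288, Gm14326, Gm14391 and Gm14410 share, or, in Gm14393, the longest stretch of it in that window, 17 bases, with shorter matches left in lower case. All 3 windows are on the minus strand, Gm14288 at chr2:175800989-175801288, Gm14326 at chr2:177957239-177957538 and Gm14393 at chr2:175067720-175068019.
Gm14288: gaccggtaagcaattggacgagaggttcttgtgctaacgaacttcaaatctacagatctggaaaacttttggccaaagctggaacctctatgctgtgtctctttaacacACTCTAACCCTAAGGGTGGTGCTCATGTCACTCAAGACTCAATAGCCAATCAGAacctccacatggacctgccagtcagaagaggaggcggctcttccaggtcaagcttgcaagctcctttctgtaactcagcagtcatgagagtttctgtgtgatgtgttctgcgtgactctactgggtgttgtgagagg
Gm14326: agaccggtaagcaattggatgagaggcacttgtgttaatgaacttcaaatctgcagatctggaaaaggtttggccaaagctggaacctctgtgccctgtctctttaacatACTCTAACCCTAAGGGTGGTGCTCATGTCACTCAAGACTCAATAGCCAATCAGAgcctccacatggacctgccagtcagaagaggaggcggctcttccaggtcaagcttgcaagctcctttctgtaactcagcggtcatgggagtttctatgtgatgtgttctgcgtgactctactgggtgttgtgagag
Gm14393: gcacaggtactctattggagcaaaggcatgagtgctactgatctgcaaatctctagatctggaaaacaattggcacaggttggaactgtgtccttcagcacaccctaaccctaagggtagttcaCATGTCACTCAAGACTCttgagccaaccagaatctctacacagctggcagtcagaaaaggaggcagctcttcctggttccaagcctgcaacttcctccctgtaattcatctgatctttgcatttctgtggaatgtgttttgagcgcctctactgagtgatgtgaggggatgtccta
The first pair was identical at 94.6% of 299 aligned bases, and Gm14326 and Gm14391 at 99.2%, while Gm14393 matched the other windows at 76.7% to 77.5%. The 54-base run occurred in promoters of 26 genes among 27025 genes with a window, and all 26 were on chromosome 2. Probes for such similar genes may take up RNA of a neighbour, so how many separate transcripts differ cannot be told apart here, and no function is assigned to these predicted genes.

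Gm14288, read by 3 probes, had a lowest, median and highest log2 ratio of 0.21, 0.81 and 1.40 in Her2/Neu+/IFNAR1-/- glands, against -1.38, -0.89 and -0.63 in Her2/Neu+ glands. Every Her2/Neu+/IFNAR1-/- array lay above every Her2/Neu+ array, and the gene rose by 1.75 ± 0.21 (SE, 3.37-fold, adjusted p = 5.45e-05 by limma). Its 3 probes gave changes between 1.31 and 2.16. Gm14411, annotated as a pseudogene, had values of 0.22, 0.84 and 1.40 in Her2/Neu+/IFNAR1-/- glands, against -3.10, -1.37 and -0.41 in Her2/Neu+ glands. The groups did not overlap, and it rose by 2.36 ± 0.30 (5.14-fold, adjusted p = 5.45e-05 by limma).

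Gm14393 ran at 0.64, 1.74 and 2.94 in Her2/Neu+/IFNAR1-/- glands, against -2.04, -0.66 and -0.06 in Her2/Neu+ glands, of which 3 of 6 values were repeated ones. It rose by 2.63 ± 0.38 (6.21-fold, adjusted p = 0.000405 by limma). Gm14326 was the tightest of the group, at 1.42, 1.76 and 2.15 in Her2/Neu+/IFNAR1-/- glands and -0.14, 0.03 and 0.39 in Her2/Neu+ glands, and rose by 1.69 ± 0.25 (3.22-fold, adjusted p = 0.000525 by limma). Gm14391 stood at 0.26, 0.96 and 2.17 in Her2/Neu+/IFNAR1-/- glands and at -1.33, -0.47 and -0.18 in Her2/Neu+ glands, and rose by 1.77 ± 0.35 (3.41-fold, adjusted p = 0.0337 by limma). None of these 3 genes had overlapping groups. Repeated values entered, in at least 1 probe, on 5 of 6 Her2/Neu+ arrays for Gm14391, 2 of 6 for Gm14288 and for Gm14411, and 0 for Gm14326, and on 2 of 9 Her2/Neu+/IFNAR1-/- arrays for Gm14391. Without arrays 114 and 119 the first 4 genes still rose (adjusted p = 3.14e-05 to 0.00428 by limma), while Gm14391 had a change of 1.91 with an adjusted p of 0.0657. Within set 1 the 5 changes were 1.56 to 2.97 and within set 2 they were 1.49 to 2.05.

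Most measured genes of the stretch had positive changes. Between Gm14393 and Zfp931, 14 genes were measured, 5 rose, 10 were higher at an unadjusted p under 0.05, and the median change was 1.60, against 0.11 over all genes. Large changes that missed the adjusted threshold were those of Gm14410 at 2.04 ± 0.43 (adjusted p = 0.0501 by limma), Gm14308 at 1.74 (adjusted p = 0.181) and Zfp931 at 1.52 (adjusted p = 0.109). Within the same stretch Zfp966 had a change of -0.54, and the pseudogenes Gm14407 and Gm14439 had -0.21 and -0.13. The 3 measured genes on each side, Ctsz, Atp5e and Prelid3b before it and Ppp1r3d, Cdh26 and Taf4 after it, had changes between -0.32 and 0.26, and none of the 6 had an unadjusted p under 0.05. The ends of this stretch, and its genes outside the 5 that rose, were singled out after their values were seen. The contrast with the flanking genes is partly set by that choice.

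**Figure D2:**
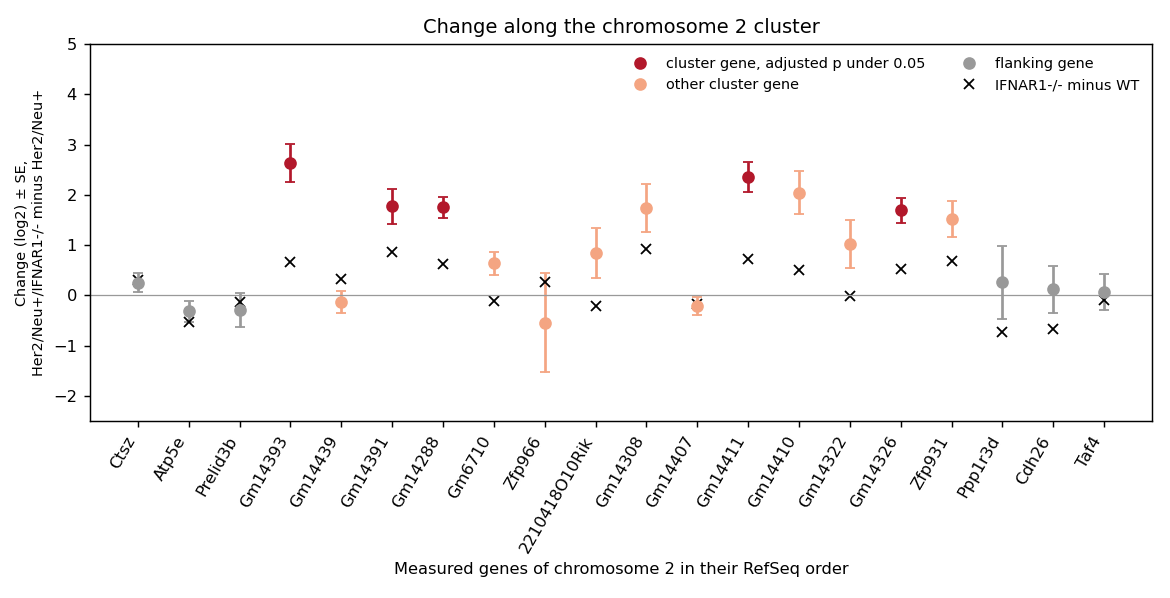
Changes of the measured genes in their order along chromosome 2, with error bars of 1 SE, for Her2/Neu+/IFNAR1-/- minus Her2/Neu+ (points) and IFNAR1-/- minus WT (crosses). Most genes from Gm14393 to Zfp931 lie above 1 with the oncogene, and the 6 flanking genes lie between -0.32 and 0.26.

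Without the oncogene, where 3 genes passed the test (0.0262%) and 787 had an unadjusted p under 0.05 (6.87%), the same stretch had a median change of 0.51 in IFNAR1-/- minus WT glands. There Gm14288 averaged 0.57 ± 0.28 in IFNAR1-/- and -0.05 ± 0.53 in WT glands (SD, n = 8 and 7), a change of 0.62 ± 0.21 (SE, adjusted p = 0.657 by limma). The difference between the changes with and without the oncogene was 1.13 ± 0.30 for Gm14288, 1.64 ± 0.42 for Gm14411 and 1.97 ± 0.53 for Gm14393, each with an adjusted p of 0.425 by limma. A larger rise in oncogene-carrying glands was therefore not past the test for any of the 5 genes.

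Glo1, which encodes glyoxalase I, the enzyme that detoxifies methylglyoxal with glutathione, was the gene that fell. Its log2 ratio was -2.90, -0.85 and -0.12 (lowest, median, highest) in Her2/Neu+/IFNAR1-/- glands, against 0.52, 0.75 and 1.35 in Her2/Neu+ glands. The groups did not overlap, and Glo1 fell by 1.78 ± 0.29 on the log2 scale (SE, 3.45-fold, adjusted p = 0.00173 by limma). It fell by 1.62 without arrays 114 and 119 (adjusted p = 0.0325 by limma). A fall was also present without the oncogene, where Glo1 averaged -0.68 ± 0.36 in IFNAR1-/- and 0.94 ± 0.27 in WT glands (SD, n = 8 and 7) and fell by 1.61 (adjusted p = 0.0113 by limma). The difference between the changes was -0.17 ± 0.40 (adjusted p = 0.895 by limma). Its 10 nearest measured neighbours on chromosome 17 had changes between -0.32 and 0.66, and 0 of them had an unadjusted p under 0.05. Among 17 measured methylglyoxal and glutathione enzymes, 12 had a positive change and Glo1 alone passed the test. Hagh, which encodes the next enzyme of the pathway, had a change of -0.08 (adjusted p = 0.940 by limma).

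Agpat2, Rnase4 and Clec3b rose, but with wider spread in Her2/Neu+ glands. Agpat2, an acyltransferase of triglyceride synthesis, had log2 ratios of 2.81, 4.27 and 5.66 in Her2/Neu+/IFNAR1-/- glands, against -0.03, 1.38 and 4.40 in Her2/Neu+ glands. Of the 9 Her2/Neu+/IFNAR1-/- arrays 4 lay above every Her2/Neu+ array, all 9 lay above the Her2/Neu+ mean, and the gene rose by 2.84 ± 0.53 (SE, 7.14-fold, adjusted p = 0.0155 by limma). Its change was 2.13 without arrays 114 and 119, with an adjusted p of 0.21, and 2 of 6 Her2/Neu+ values were repeated ones.

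Rnase4, a secreted ribonuclease, had values of 1.23, 2.60 and 2.76 in Her2/Neu+/IFNAR1-/- glands, against -0.35, 1.11 and 1.94 in Her2/Neu+ glands. It rose by 1.44 ± 0.28 (2.72-fold, adjusted p = 0.0284 by limma), with 7 of 9 arrays above every Her2/Neu+ array and 2 of 6 Her2/Neu+ values repeated. With those arrays left out its change was 0.93 and the adjusted p 0.257. In glands without the oncogene it averaged 3.10 ± 0.28 in IFNAR1-/- and 1.89 ± 0.31 in WT, a change of 1.22 (adjusted p = 0.208 by limma).

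Clec3b, which encodes the plasminogen-binding protein tetranectin and is used as a fibroblast marker, stood at the limit of 6 on 7 of 8 Her2/Neu+/IFNAR1-/- arrays with a value. The lowest was 3.46, and the 4 Her2/Neu+ arrays with a value ran from -0.03 to 4.40. It rose by an estimated 2.87 (7.33-fold, adjusted p = 0.0493 by limma). Values above the limit cannot be seen, which hides part of the size and of the spread, so no error is given. Without arrays 114 and 119 its change was 1.93 with an adjusted p of 0.21. The changes of Agpat2, Rnase4 and Clec3b were 2.01, 0.88 and 2.25 within set 1, and 4.35, 2.51 and 5.53 within set 2, where arrays 114 and 119 are the only Her2/Neu+ arrays.

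**Figure D3:**
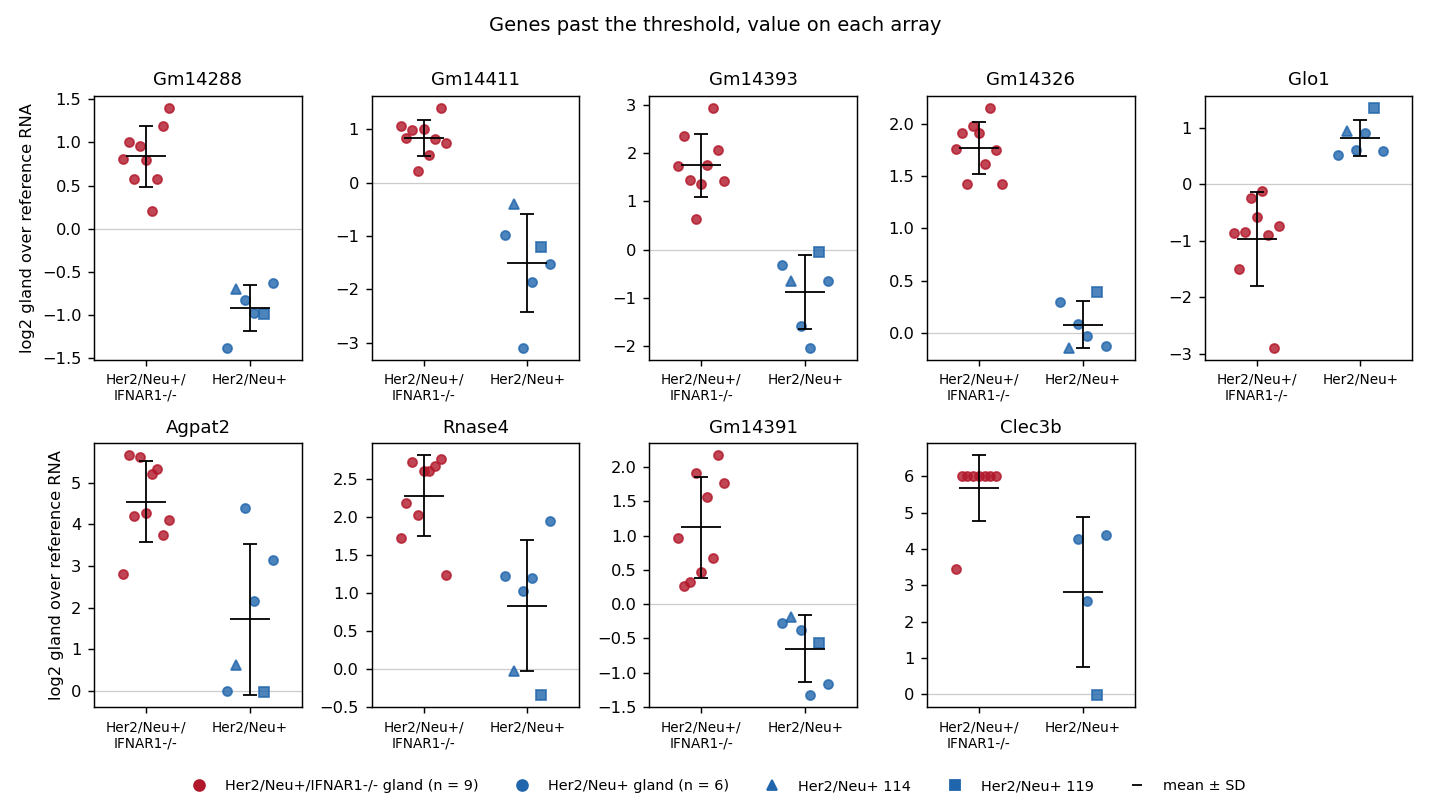
Log2 ratio to the reference RNA on each array for the 9 genes past the threshold, Her2/Neu+/IFNAR1-/- left and Her2/Neu+ right, with the mean and SD. The triangle is Her2/Neu+ array 114 and the square is array 119. The groups are separate for Glo1 and the 5 predicted genes and overlap for Agpat2 and Rnase4.

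The genes just inside the threshold were Clec3b and Gm14391, and those just outside it were Gm14410, Tsc22d3 and Nfkbia. Larger changes further out had adjusted p-values near 0.1 by limma, among them Mia at 3.77 ± 0.86 and the alcohol dehydrogenase Adh1 at 2.35 ± 0.53, with 6 of 8 Her2/Neu+/IFNAR1-/- values of Adh1 at the limit. Among negative changes, the glycolytic enzyme gene Eno2 came closest. It had values of -3.71, -3.14 and -1.98 in Her2/Neu+/IFNAR1-/- glands, against -1.98, -1.53 and -0.62 in Her2/Neu+ glands. All but 1 of the 9 arrays lay below every Her2/Neu+ array, and the change was -1.5 ± 0.34 (adjusted p = 0.0964 by limma). The next falls in order of p were those of the RNA-binding gene Lsm8 at -1.43, Rps19bp1 at -1.27 and the ER retrieval receptor Kdelr2 at -1.26 (adjusted p = 0.109, 0.115 and 0.115 by limma). The transcription factor gene Xbp1, which serves secretory cells, had a change of -0.88 ± 0.25 (adjusted p = 0.207 by limma), with values of -0.12, 0.63 and 2.00 in Her2/Neu+/IFNAR1-/- glands, against 1.26, 1.5 and 2.42 in Her2/Neu+ glands.

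Separation of the arrays also picked out genes that missed the test, named here after their values were seen. Csf1r, the receptor for the macrophage growth factor Csf1, ran from 0.10 to 1.44 in Her2/Neu+/IFNAR1-/- glands and from -0.90 to 0.06 in Her2/Neu+ glands (change 0.81 ± 0.28, adjusted p = 0.285 by limma). The zinc transporter gene Slc39a7 had a change of 0.93 ± 0.25 (adjusted p = 0.17 by limma). On the lower side were Carnmt1 at -1.06 ± 0.27, Prmt2 at -1.18 ± 0.34 and the interferon-inducible GTPase gene Gbp2b at -3.92 ± 1.01 (adjusted p = 0.139, 0.207 and 0.201 by limma). Gbp2b had values on 5 Her2/Neu+/IFNAR1-/- and 3 Her2/Neu+ arrays, and 3 of the 5 were repeated ones. For 5530601H04Rik, Daam1 and Slc22a23 every Her2/Neu+/IFNAR1-/- value was a repeated one.

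Ifnar1 itself did not pass the test in glands labelled as lacking it. Its log2 ratio was -0.04, 0.65 and 3.20 (lowest, median, highest, n = 8) in Her2/Neu+/IFNAR1-/- glands, against -0.03, 0.14 and 3.66 (n = 6) in Her2/Neu+ glands. The groups overlapped over nearly their whole range, and the change was 0.27 ± 0.58 (adjusted p = 0.88 by limma). In IFNAR1-/- minus WT glands the change was -0.23 (adjusted p = 0.961 by limma). Repeated values made up 6 of 8 and 3 of 6 of these measurements, and the position of the 2 Ifnar1 probes relative to the deletion was not given, so these values do not check the genotype. The partner receptor chain Ifnar2 had a change of 0.13 (adjusted p = 0.899 by limma). Over the 11 measured receptor chains, kinases and factors of the pathway the median change was 0.04, or -0.03 without arrays 114 and 119, and 0 had an unadjusted p under 0.05. Stat2 had a change of 0.01, Irf9 of -0.18, Irf7 of -0.28 and Tyk2 of 0.51 (adjusted p = 0.523 to 0.994 by limma).

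Interferon-stimulated antiviral genes had mostly negative changes. Of 41 measured, 33 had a negative and 8 a positive change, and the median was -0.68, against 0.11 over all genes. At an unadjusted p under 0.05, 6 were lower, against 4.18% of all genes, and 0 higher, and 0 passed the adjusted test. The median was -0.78 without arrays 114 and 119, and 10 were then lower, against 300 of 11463 genes. The median was -0.90 within set 1. Within set 2 it was -0.19 over 39 members, against -0.05 over all genes there. At an unadjusted p under 0.05, 4 of the 39 were lower and 3 higher, against 1129 and 1315 of 11390 genes. Those 2 counts were near or below the shares of all genes. Over the alternatives tried the list median stayed between -0.93 and -0.19.

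Bst2, which encodes tetherin, a protein that holds budding viruses at the cell surface, had log2 ratios of -2.84, -1.74 and 1.44 in Her2/Neu+/IFNAR1-/- glands, against -0.61, 0.30 and 2.05 in Her2/Neu+ glands. Of the 9 arrays 6 lay below every Her2/Neu+ array, and the change was -1.63 ± 0.53 (adjusted p = 0.273 by limma). Oasl1, a relative of the RNA-sensing oligoadenylate synthetases, had values of -4.18, -3.06 and -0.76 in Her2/Neu+/IFNAR1-/- glands, against -3.27, -0.66 and -0.04 in Her2/Neu+ glands. Its groups overlapped, and its change was -1.65 ± 0.51 (adjusted p = 0.236 by limma). Isg20, an exonuclease, had a change of -0.83 ± 0.28 (adjusted p = 0.282 by limma), with 6 of 9 Her2/Neu+/IFNAR1-/- values repeated.

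The remaining members at an unadjusted p under 0.05, named after their values were seen, were Oas1f at -1.84, Mx2 at -1.07 and Dhx58 at -1.11 (adjusted p = 0.326, 0.408 and 0.434 by limma). Of the members by which this response is best known, the ubiquitin-like modifier Isg15 had a change of -1.02 ± 0.63, the antiviral enzyme Rsad2 one of -0.74 ± 0.53 and Ifit1, which binds foreign RNA, one of -0.97 ± 0.63 (adjusted p = 0.522, 0.577 and 0.541 by limma). Ifit1 was repeated on 8 of 9 Her2/Neu+/IFNAR1-/- arrays, so its level there rests on few measurements. Isg15 averaged 0.44 ± 1.75 in Her2/Neu+/IFNAR1-/- and 1.46 ± 1.65 in Her2/Neu+ glands (SD, n = 9 and 6), a spread wider than the difference.

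The mean of these 41 genes on each array, after each gene was centred on its mean over the series, showed where that spread lay. It was -0.45, -0.01 and 1.73 in Her2/Neu+/IFNAR1-/- glands, against -0.04, 0.99 and 2.04 in Her2/Neu+ glands. Among the Her2/Neu+/IFNAR1-/- arrays, 110 at 1.73 and 105 at 1.43 lay above the Her2/Neu+ median, and 4 arrays lay below every Her2/Neu+ array. The lowest Her2/Neu+ array was 114. In IFNAR1-/- glands the mean was -1.28, -0.70 and -0.65, against -0.57, -0.18 and 0.21 in WT glands, and those groups did not overlap. The median change without the oncogene was -0.5. All 9 Her2/Neu+/IFNAR1-/- arrays lay above all 8 IFNAR1-/- arrays, a comparison given here by its values only.

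**Figure D4:**
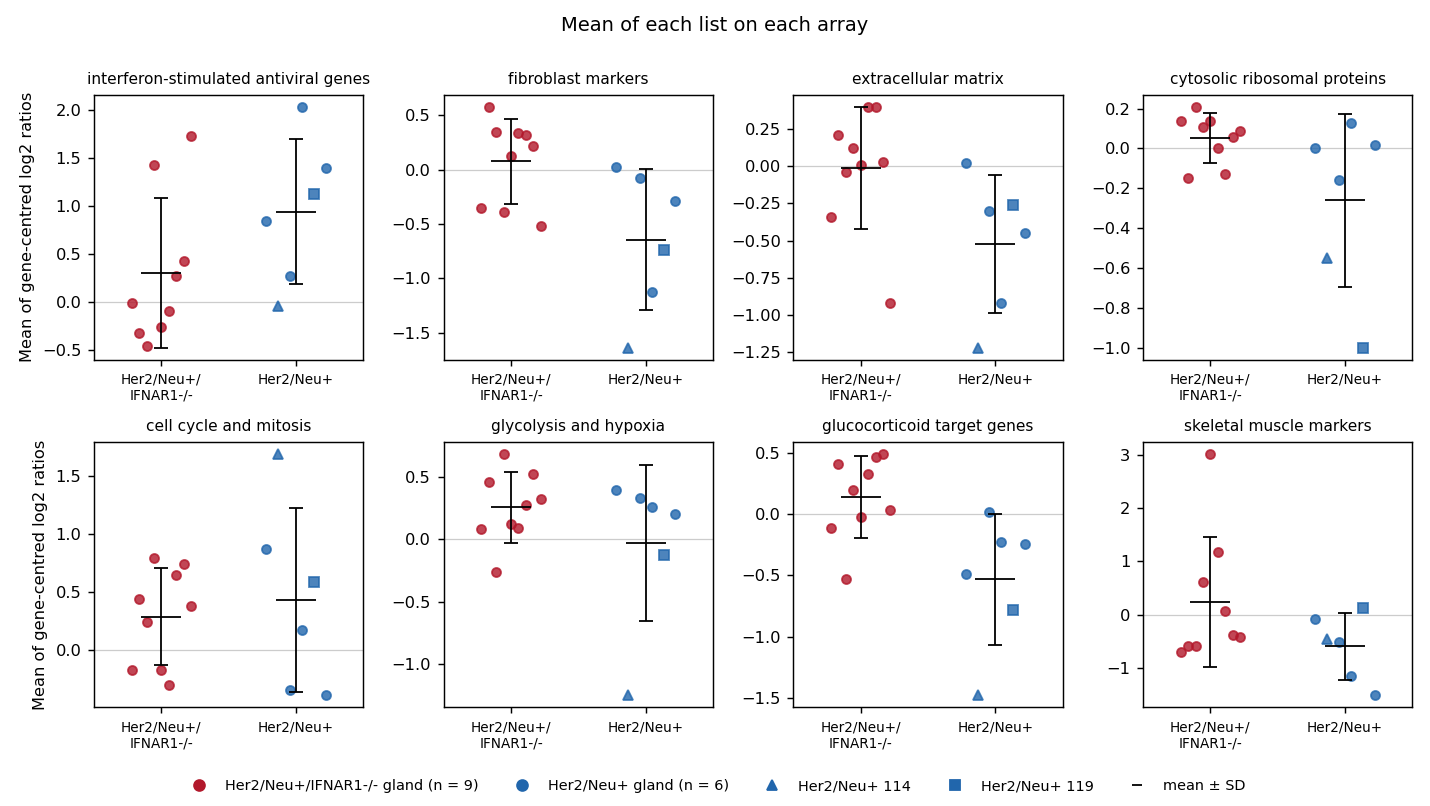
Mean of each gene list on each array, every gene centred on its mean over the 30 arrays, with Her2/Neu+/IFNAR1-/- left of Her2/Neu+. Interferon-stimulated genes lay between -0.45 and 1.73 in Her2/Neu+/IFNAR1-/- and between -0.04 and 2.04 in Her2/Neu+ glands, and array 114 was the lowest Her2/Neu+ array for them.

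The promoters of the antiviral genes are the place where the receptor's signal acts. Stretches of 100 bases around a match to a core pattern of the interferon-stimulated response element are shown for 3 members. They come from RefSeq (GRCm38.p6), all on the minus strand, Bst2 at chr8:71537548-71537647, Isg15 at chr4:156200842-156200941 and Rsad2 at chr12:26456518-26456617. Capitals mark the first match to GAAANNGAAA, which was searched on both strands and lies on the opposite strand in Rsad2. In Bst2 and Isg15 a further match overlaps the first and runs on in lower case. Which match serves as the response element was not tested.
Bst2: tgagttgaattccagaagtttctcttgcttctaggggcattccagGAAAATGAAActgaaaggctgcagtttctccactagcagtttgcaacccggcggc
Isg15: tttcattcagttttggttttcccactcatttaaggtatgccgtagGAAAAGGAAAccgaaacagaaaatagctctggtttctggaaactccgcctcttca
Rsad2: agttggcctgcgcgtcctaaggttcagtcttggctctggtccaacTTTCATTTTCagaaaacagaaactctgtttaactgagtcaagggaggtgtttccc
Of 28 measured members with a promoter window, 15 held a match within 300 bases, against 3.99% of all genes with a window. The 15 with a match had a median change of -0.79, with 13 negative, and the 13 without a match had a median of -0.83, with all 13 negative, so the change was not larger where these letters were found. No match says only that this exact pattern is absent from the window.

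Genes that answer chiefly to interferon gamma had a median change of -0.53 over 12 measured, with 8 negative. Against 4.18% of all genes, 1 was lower at an unadjusted p under 0.05. That was Gbp3, a guanylate-binding GTPase, with values of -0.03, 2.29 and 3.97 in Her2/Neu+/IFNAR1-/- glands, against 3.25, 3.52 and 4.11 in Her2/Neu+ glands. Here 5 of 9 arrays lay below every Her2/Neu+ array while the others overlapped them (change -1.53 ± 0.60, adjusted p = 0.341 by limma). The GTPases Igtp and Iigp1 had changes of -1.01 and -1.85 (adjusted p = 0.455 and 0.5). Antigen presentation genes had no stable direction. The 15 MHC class I and peptide-loading genes had a median change of 0.00, with B2m at -0.5 and Tap1 at -0.59. Over the alternatives this median ran from -0.16 to 0.25. The 6 MHC class II genes had a median of 0.38, and 0 of either list had an unadjusted p under 0.05. Without arrays 114 and 119 the class I median was -0.14 and the class II median -0.09.

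Connective tissue genes had mostly positive changes. Of 15 measured genes listed as fibroblast markers, 13 were positive, against 59.1% of all genes. At an unadjusted p under 0.05, 6 were higher, against 6.99% of all genes, and the list median was 0.70. Of the list 2 rose, Clec3b and Rnase4, the latter also listed as a secreted ribonuclease. Members were chosen with earlier results of these data known, so the presence of these 2 may follow from that choice. Pi16, a marker of adventitial fibroblasts, had a change of 1.47 ± 0.51 (adjusted p = 0.285 by limma). The general markers Pdgfra, Thy1 and Dpt had changes of 0.42, 0.79 and -0.13. The mean over the list was -0.52, 0.22 and 0.58 in Her2/Neu+/IFNAR1-/- glands, against -1.64, -0.52 and 0.02 in Her2/Neu+ glands, with overlap. Without arrays 114 and 119 the median was 0.45 and 3 markers were higher at an unadjusted p under 0.05.

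Of 28 extracellular matrix genes, 21 had a positive change, and 0 passed the adjusted test. At an unadjusted p under 0.05, 10 were higher and 0 lower, against 6.99% and 4.18% of all genes. The list median was 0.39, and 0.43 without arrays 114 and 119, where 5 were higher. It was 0.40 within set 2 but 0.16 within set 1, close to the 0.154 of all genes there, with 4 higher. Fn1, which encodes fibronectin, had log2 ratios of -2.96, -2.42 and -1.30 in Her2/Neu+/IFNAR1-/- glands, against -4.66, -3.54 and -2.89 in Her2/Neu+ glands. Of the 9 arrays 7 lay above every Her2/Neu+ array (change 1.43 ± 0.38, adjusted p = 0.17 by limma). The basement membrane chains Lamc1 and Lamb1 had changes of 1.15 ± 0.31 and 1.73 ± 0.51 (adjusted p = 0.17 and 0.207 by limma). Lamb1 was at -4.14 on array 114 and -2.77 on array 119, against -0.18 to 0.66 on the other Her2/Neu+ arrays. Col3a1 and Col1a1, the fibrillar collagens, had changes of 1.67 and 0.89 (adjusted p = 0.207 and 0.368).

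Known glucocorticoid target genes also leaned upward, with 11 of 13 positive and a median of 0.61, or 0.35 without arrays 114 and 119. At an unadjusted p under 0.05, 4 were higher, against 6.99% of all genes. Within set 1 the median was 0.09 with 7 of 13 positive, below the 0.154 of all genes there, and within set 2 it was 1.19. Tsc22d3, which encodes the glucocorticoid-induced leucine zipper, had values of 1.52, 1.91 and 2.50 in Her2/Neu+/IFNAR1-/- glands, against -0.24, 0.47 and 1.67 in Her2/Neu+ glands (change 1.36 ± 0.29, adjusted p = 0.0651 by limma). All but 1 of the 9 arrays lay above every Her2/Neu+ array. Without the oncogene it averaged 1.45 ± 0.56 in IFNAR1-/- and 2.50 ± 0.50 in WT glands (SD, n = 8 and 7), a change of -1.05 ± 0.29 that did not pass (SE, adjusted p = 0.453 by limma). The difference between the changes was 2.41 ± 0.41, and it passed limma's interaction test (adjusted p = 0.023). That test called 2 genes of 11463 (0.0174%), and 1103 (9.62%) at an unadjusted p under 0.05. Without arrays 114 and 119 the difference was 2.02 with an adjusted p of 0.097. Nfkbia, the inhibitor of NF-kappaB that both glucocorticoids and NF-kappaB induce, had values of -0.22, 0.11 and 0.75 in Her2/Neu+/IFNAR1-/- glands, against -1.18, -0.83 and -0.01 in Her2/Neu+ glands (change 0.98 ± 0.21, adjusted p = 0.0759 by limma). Other members lay nearer 0, with Fkbp5 at -0.10, Per1 at 0.07 and Sgk1 at 0.23.

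Flywch2 was the other gene past the interaction test, at -3.06 ± 0.48 (adjusted p = 0.0282 by limma). Its values rose without the oncogene, at 2.74 ± 0.75 in IFNAR1-/- and 0.01 ± 0.07 in WT glands (SD, n = 6 and 5, adjusted p = 0.000518 by limma). With the oncogene, all 5 Her2/Neu+/IFNAR1-/- values and 2 of 3 Her2/Neu+ values were repeated ones. With repeated values missing, 0 genes passed the interaction test.

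Of 25 genes of fatty acid and triglyceride synthesis, 18 had a positive change, against 59.1% of all genes. At an unadjusted p under 0.05, 5 were higher, against 6.99% of all genes, and 1, Agpat2, rose. The list median was 0.46. Without arrays 114 and 119 it was 0.33 with 3 higher, against a median of 0.14 over all genes. Thrsp, a lipogenic nuclear protein, and the last-step enzyme Dgat1 had changes of 0.71 ± 0.26 and 1.45 ± 0.55 (adjusted p = 0.321 and 0.326 by limma). Fasn, the fatty acid synthase, had a change of 0.69 (adjusted p = 0.629). White adipocyte markers had a median of 0.16 over 16 genes, close to that of all genes, but several stood at the upper limit. Luminal epithelial markers had a median change of 0.30 over 11 genes and -0.07 without arrays 114 and 119, with 0 at an unadjusted p under 0.05. Krt18 averaged 0.5 ± 0.96 in Her2/Neu+/IFNAR1-/- and 0.54 ± 1.39 in Her2/Neu+ glands (SD, n = 9 and 6). Of 11 basal and myoepithelial markers 2 were higher at an unadjusted p under 0.05, against 6.99% of all genes. These were Tagln at 1.24 ± 0.36 and Acta2 at 0.73 ± 0.33, both contractile proteins that smooth muscle also makes (adjusted p = 0.207 and 0.416 by limma).

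**Figure D5:**
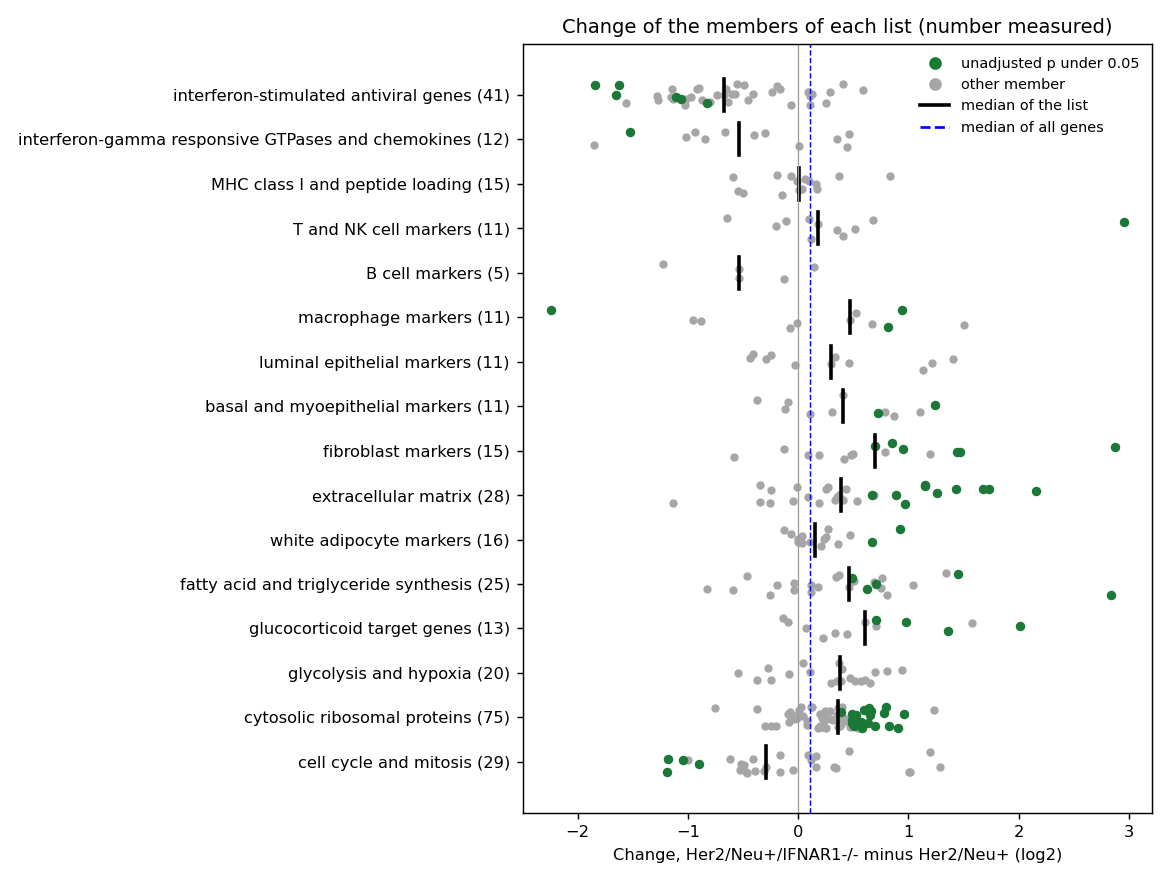
Changes of the measured members of 16 gene lists, each point a gene, with the list median as a bar and the median of all genes, 0.11, as a dashed line. Interferon-stimulated genes have the lowest median of the lists named, -0.68, while fibroblast markers lie at 0.70.

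Immune cell markers gave no uniform picture. Of 11 macrophage markers 2 were higher and 1 lower at an unadjusted p under 0.05, against 6.99% and 4.18% of all genes. C1qc, a complement subunit made by macrophages, had values of 4.40, 5.00 and 5.98 in Her2/Neu+/IFNAR1-/- glands, against 3.14, 4.30 and 4.63 in Her2/Neu+ glands (change 0.94 ± 0.25, adjusted p = 0.169 by limma). Its 10 probes gave changes between -0.31 and 2.79, 8 of them positive. The mannose receptor Mrc1 went the other way in value, at -2.24 ± 0.96 (adjusted p = 0.392), with 4 Her2/Neu+ values. The macrophage list had 2 higher and 0 lower without arrays 114 and 119. T and NK cell markers had a median of 0.18 over 11 genes, with the granzyme Gzmk at 2.95 (n = 5 and 5, adjusted p = 0.306 by limma) the 1 member at an unadjusted p under 0.05. B cell markers had a median of -0.53 over 5 genes, led by the receptor Cd22 at -1.22, and -0.25 without arrays 114 and 119. Plasma cell markers had a median of -0.25 over 7 genes, but 0.37 without those arrays, and neutrophil markers -0.17 over 5, but 0.05 without them. On array 114 the centred mean was 2.70 for plasma cell, 2.42 for B cell and 1.24 for neutrophil markers. Among 30 chemokines and receptors the median change was 0.08 and 18 were positive, close to the 0.11 and 59.1% of all genes. At an unadjusted p under 0.05, 4 were higher and 0 lower, against 6.99% and 4.18% of all genes. The 4 included the eosinophil attractants Ccl11 at 2.21 and Ccl24 at 1.59 (adjusted p = 0.326 and 0.408 by limma).

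Some broad gene groups moved mainly with arrays 114 and 119. The 75 cytosolic ribosomal protein genes had a median change of 0.36 with 62 positive, led by Rpl37a at 0.79 (adjusted p = 0.207 by limma). At an unadjusted p under 0.05, 20 were higher, against 6.99% of all genes. Without these arrays the median of the 75 genes was 0.04, with 42 positive and 0 higher. Their mean was -0.55 on array 114 and -1.0 on array 119, against -0.15 to 0.21 on the Her2/Neu+/IFNAR1-/- arrays. The 29 cell cycle genes had a median of -0.29, led by the mitotic cyclin Ccnb2 at -1.19 (adjusted p = 0.326), and a median of 0.12 without them, and their mean on array 114 was 1.69. The 20 glycolysis and hypoxia genes, led by the pyruvate kinase Pkm at 0.70, had a median of 0.38 and of -0.05 without them, with a mean of -1.25 on array 114. The part of these arrays in the changes of single genes beyond the values given was not tested.

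None of the measured ERBB receptors, ligands and ERK target genes passed the test. Erbb2, the mouse gene of which Neu is the rat counterpart, had a log2 ratio of -0.10, 0.30 and 1.31 in Her2/Neu+/IFNAR1-/- glands, against 0.00, 0.5 and 1.13 in Her2/Neu+ glands. Its change was -0.13 ± 0.26 over 10 probes (adjusted p = 0.871 by limma), with probes from -1.10 to 1.51, and whether any of them reads the transgene is not given. The median change was 0.15 over 6 ERBB receptors and ligands and -0.04 over 15 target and feedback genes of ERK, the kinase below the receptor, with 0 of either list at an unadjusted p under 0.05. These medians were 0.20 and -0.32 without arrays 114 and 119.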

How the data were processed

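Inguinal mammary glands were profiled on 2-colour arrays, 1 array per sample. The authors deposited log2 ratios of gland (Cy5) over reference RNA (Cy3). Base 2 is an inference from values that never exceed 6 in size, and the dyes named in the labels give the direction. The authors' scanner settings, background correction, normalization and rule for blank or repeated values are not given in the sources used here. No intensities were given, so the signal over background of a value is not known, and precision rests on how many arrays there are. Array medians lay between -0.09 and -0.01 in Her2/Neu+/IFNAR1-/- and between -0.12 and 0.00 in Her2/Neu+ arrays.

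Of 20896 probes, 17376 carried 1 gene symbol in the platform annotation and 3520 carried none. Probes missing on more than 50% of any group's arrays were dropped, leaving 16247 named probes. Probes of a gene were averaged, 2606 genes having more than 1 probe. The deposited scaling was kept. Blank values, 2.87%, were left out of each gene's fit. limma 3.58.1 in R 4.3.3 fitted all 30 arrays with a mean per group (lmFit, eBayes without a trend), two-sided, with Benjamini-Hochberg adjustment over all genes and a threshold of 0.05. Errors of a change are SE from this fit and errors of a group mean are SD. Fitted to data simulated on this comparison with 200 of 11463 genes changed, it called 26% of 100 genes changed 2-fold and 72% of 100 changed 4-fold, with 8 false calls. The simulated noise was normal and independent between genes and arrays, with no array apart, no limit and no repeated values. More genes also passed there than in the real comparison, which loosens the adjusted threshold. These shares may therefore be higher than those for the real data.

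Gene lists, 44 in all, were described by counts and medians without a list test. The members and lists were chosen with earlier results of these data known. The rule for named genes took every gene past the threshold, up to 12 rises and 12 falls next to it, the 3 members of a list with the smallest p and up to 3 that define it, and Ifnar1, Ifnar2 and Erbb2. The text names all genes past the threshold and some of the others, and says where a gene outside the rule was added after its values were seen. Chromosomes, gene order and promoters came from RefSeq (GRCm38.p6), aligned with Biopython 1.88 in Python 3.11.15. Slides and array sets were inferred from the block numbers in the labels. Alternatives covered the probe filter, probe averaging, scaling, repeated and limit values, the fit, slides and sets, thresholds and single arrays.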

Additional observations from a re-analysis of the deposited data

Results flagged for a closer look

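A sample stood far from the rest of its group in 9 of 120 groups checked with Dixon's criterion at its 95% critical value, and chance marks about 1 in 20. The lowest Clec3b value of the Her2/Neu+/IFNAR1-/- arrays, 3.46 on array 102, lay apart from 7 values at the limit. The lowest Glo1 value in that group was -2.90 on array 109. The highest Ifnar1 value of the Her2/Neu+ arrays was 3.66 on array 114. On Her2/Neu+/IFNAR1-/- array 103 the centred mean of the brown and beige fat markers was 1.39, that of the respiratory complex subunits 0.60 and that of the mitochondrial ribosomal proteins 0.34, each the highest of 9. Array 106 had the highest mean of the skeletal muscle markers, 3.02. Her2/Neu+ array 114 had the lowest mean of the glycolysis and hypoxia genes, -1.25, and array 115 the lowest of the caspases and cell death genes, -0.27.

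The change with the oncogene differed from that without it, by limma's interaction test, for Tsc22d3 (2.41) and for Flywch2 (-3.06).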

How the results depend on the processing

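None of the 9 genes past the threshold changed direction under the alternatives run. The count of genes past the threshold, 9 in Her2/Neu+/IFNAR1-/- minus Her2/Neu+, was 4 with only the 15 arrays compared, 37 of 4871 genes with probes repeated on at most 3 arrays, 5 with the inferred slide as a random block, 2 in set 1 alone and 903 in set 2 alone, where arrays 114 and 119 are the only Her2/Neu+ arrays. It was 5 at an adjusted p under 0.01, 14 under 0.1 and 3 for a change tested against 1.5-fold. Leaving out 1 array gave 6 to 24, with 24 without Her2/Neu+ 113 and 18 without 115. The interaction count, 2, was 1 with probes valued on all arrays, with probes repeated on at most 3 arrays, with the array set as factor, without the last slide and without arrays 114 and 119. It was 0 by limma with repeated values missing (708 at an unadjusted p under 0.05, or 832 with 3 or more values per group), a variance trend (1095), array weights (1373), block number as factor (1011), slide as random block (657), set 1 alone (474), an adjusted p under 0.01 (1103) and a change above 1.5-fold (208). It was 494 in set 2 alone and 0 to 3 with 1 array left out, 0 being without Her2/Neu+ 119 (1109 unadjusted) and 3 without 114. The share of higher changes at an unadjusted p under 0.05 was 62.6% (801 of 1280), 42.1% after quantile normalization (504 higher, 693 lower) and 74.4% without arrays 114 and 119. Quantile normalization gave 7 genes past the threshold, 5 higher and 2 lower. Gm14288 passed in 35 of 37 alternatives, Gm14411 and Gm14393 in 36, Gm14326 in 35, Glo1 in 34, Agpat2 in 24, Gm14391 in 20, Rnase4 in 17 and Clec3b in 12 of 35. The causes were not tested. No paired analysis was possible because the sample numbers differ between the groups. The alternatives without arrays 114 and 119, without the last slide, and with 3 or more values per group were chosen after seeing the data.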

Other observations

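All 7 measured skeletal muscle markers had a positive change, with a median of 1.07, and 0 of them had an unadjusted p under 0.05. The median was 0.39 within set 1 and 1.49 within set 2. Their centred mean was -0.70, -0.38 and 3.02 (lowest, median, highest) in Her2/Neu+/IFNAR1-/- glands, against -1.52, -0.48 and 0.13 in Her2/Neu+ glands, so the group medians were close and array 106 set the upper end. Mammary stem and progenitor markers had a median change of 0.28 over 13 genes. At an unadjusted p under 0.05, 3 of them were higher, against 6.99% of all genes. Aldh1a1, a retinaldehyde-oxidising enzyme, led them at 1.41 ± 0.36 (adjusted p = 0.153 by limma). The milk fat globule gene Btn1a1 had a change of 0.94 ± 0.23 (adjusted p = 0.135 by limma), with values of 1.32, 1.99 and 2.90 in Her2/Neu+/IFNAR1-/- glands, against 0.07, 1.32 and 1.81 in Her2/Neu+ glands. S100b, a Schwann cell marker that fat cells also express, had a change of 3.50 ± 0.91 (adjusted p = 0.17 by limma) with values on 6 Her2/Neu+/IFNAR1-/- and 4 Her2/Neu+ arrays, 3 of the 4 repeated.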
